A study of Mus musculus with 4 samples.

Results

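Peaks of open chromatin around Pdgfra and Pdgfrb, the genes of the 2 platelet-derived growth factor receptors, were examined in adipose progenitors of mouse subcutaneous and visceral fat. The members were all peaks of the 4 deposited lists that overlapped a fixed stretch of mouse build mm9 around each gene. For Pdgfra this stretch was chromosome 5 from 75450000 to 75720000, and for Pdgfrb it was chromosome 18 from 61140000 to 61320000. They held 74 peaks, which merged into 37 regions out of 83319 merged regions in the series, with 18 regions in the Pdgfra window and 19 in the Pdgfrb window. Each depot gave 2 libraries, named SAT 1 and SAT 2 for subcutaneous fat, and VAT 1 and VAT 2 for visceral fat. All came from C57BL/6 mice aged 16 weeks, and the cells were freshly isolated and untreated. How the cells were sorted, the sex of the mice, and whether SAT 1 and SAT 2, or VAT 1 and VAT 2, stand for different animals are not stated in the sources used here. Each p-value therefore measures only the spread between these libraries, which may be technical.

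PDGF receptors are receptor tyrosine kinases. Dimeric PDGF ligands bring receptor chains together at the cell surface, the chains phosphorylate each other, and the signal drives growth, survival and migration of mesenchymal cells. PDGFRα is a widely used surface marker of fibroblast-like adipose progenitors. PDGFRβ marks pericytes and other perivascular cells, and is also found on progenitors that can form adipocytes. ATAC-seq maps open chromatin by letting a transposase cut accessible DNA, so a peak near such a gene is a candidate promoter or enhancer.

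In RefSeq's gene order for assembly GRCm38, Pdgfra lies between the protein-coding genes Gsx2, a homeobox gene of the developing brain, and Kit, the receptor of stem cell factor. Pdgfrb lies between Gm52351 and Csf1r, the receptor of the macrophage growth factor CSF1. No mm9 annotation was used here and no position was converted between builds. Peaks in a window were therefore not assigned to the receptor gene or to a neighbour, nor to a promoter, exon or intron. For the same reason they do not check the labelled cell type. Whether macrophages, for which Csf1r is a marker, were among the cells was not tested.

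The lists differed in length: SAT 1 held 56823 peaks, SAT 2 held 22845, VAT 1 held 56907 and VAT 2 held 62279. Each peak has a score from the authors' peak caller, a whole number of 20 or more, which is used here only as a percentile within its own list, where 50 is the middle peak and 100 the highest. A percentile depends on the length of its list, so the percentiles of the short SAT 2 list cannot be read as strength relative to the other libraries. Read depth is unknown because only peaks are listed, and the lack of a peak in a list is not evidence of closed chromatin. Cells were measured in bulk, so that fewer cells with an open site and weaker opening in each cell cannot be told apart.

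The Pdgfra window held few strong peaks in any library. No region in it had a peak in all 4, against 23.2% of all merged regions. The few SAT 2 peaks allowed at most 3 such regions. SAT 1 had 8 peaks there, SAT 2 had 3, VAT 1 had 10 and VAT 2 had 12. Their median score percentiles were 20.2 in SAT 1, 14.6 in SAT 2, 29.8 in VAT 1 and 26.6 in VAT 2. Every one of these medians stood below the middle of its list, and the 2 visceral values lay above the 2 subcutaneous ones. Among genome tiles of the same length with at least 3 peaks (a comparison chosen with these data in view), 4.26% of tiles had a lower median in SAT 1, 2.06% in SAT 2, 13.3% in VAT 1 and 9.10% in VAT 2. Peaks were weak there but not sparse. The 18 merged regions exceeded the count in 83.3% of 9762 tiles on the autosomes and X, where the median tile held 6. Per library, the count exceeded that of 68.5% of tiles in SAT 1, 66.8% in SAT 2, 75.3% in VAT 1 and 78.5% in VAT 2. The subcutaneous counts lay within the quartiles of the tiles, and the visceral counts lay above the upper quartile.

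**Figure D1:**
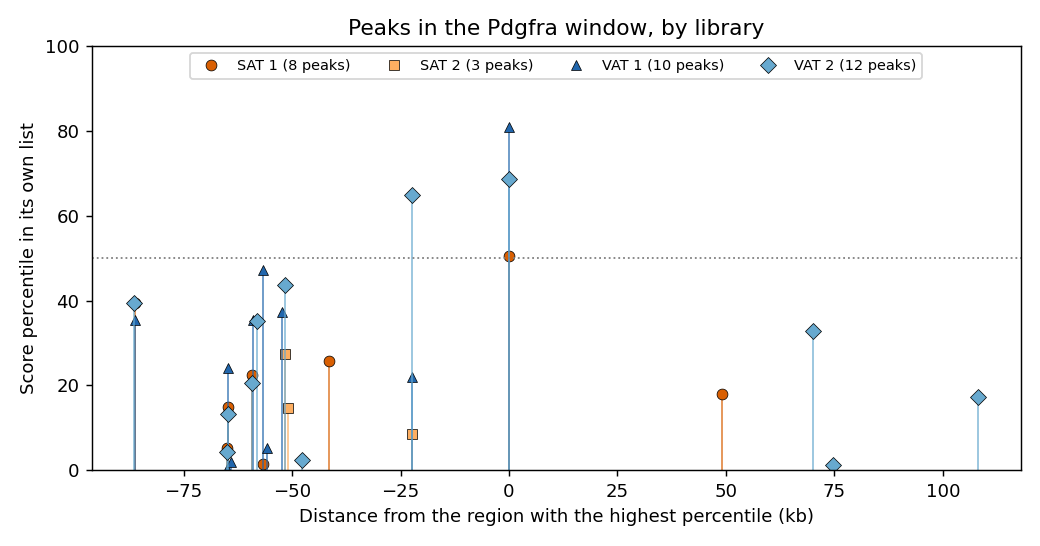
Each marker is 1 peak of the Pdgfra window, placed by its distance in kb from the region with the highest percentile (x axis) and by its score percentile in its own list (y axis), with a line down to 0 and a dotted line at the percentile of 50. Subcutaneous libraries are orange and visceral ones blue; most markers lie below 50, and the region at 0 holds the highest, at 81.0 in VAT 1.

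The strongest region of the Pdgfra window lay on chromosome 5 at 75603975 to 75604234 (mm9). It was also the region with the highest weakest percentile among those that lacked 1 library. Its score was 100 in SAT 1, 230 in VAT 1 and 152 in VAT 2, or percentiles of 50.6, 81.0 and 68.6. SAT 2 had no peak in it. It was the one region of this window in which SAT 1 reached the percentile of 50, and both visceral libraries ranked it higher than SAT 1 did.

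A further region, at 75581680 to 75581898, was the reverse case, with peaks in every library except SAT 1. It stood at the percentile of 64.9 in VAT 2 but at 22.0 in VAT 1 and 8.58 in SAT 2. Regions with this combination of libraries are rare, at 0.468% of all merged regions. Regions missing from SAT 2 alone are common, at 19.5% of all merged regions, and made up 4 of the 18 here (22.2%).

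The other 3 regions missing from SAT 2 alone were weak in all their libraries. One at 75517630 to 75517995 was nearly level, at percentiles of 39.4 in SAT 1, of 35.4 in VAT 1 and of 39.3 in VAT 2. One at 75539007 to 75539475 held 2 peaks in each of the 3 lists, and its better peaks stood at 15.0, 24.1 and 13.3 in the same order. The last, at 75544824 to 75545108, stood at 22.4, 35.4 and 20.5. Of these 3 regions, the first was ranked nearly alike by its libraries, and VAT 1 ranked the other two higher than SAT 1 and VAT 2 did.

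The peaks of the Pdgfra window were crowded on one side. Between 75539007 and 75581898, a span of 42.9 kb, lay 12 of the 18 regions with 23 of the 33 peaks. On the other side of the strongest region came a stretch of 48.8 kb with no peak in any list, from 75604235 to 75653072, the longest between 2 regions of this window. Beyond it were 4 regions, each found in 1 library: 1 in SAT 1 at the percentile of 17.9 and 3 in VAT 2 at 32.7, 1.26 and 17.3.

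Exactly 2 libraries had a peak in 2 regions of the Pdgfra window (11.1%, against 19.8% of all merged regions), and both regions joined libraries with the same replicate number. SAT 1 and VAT 1 shared a region at 75547290 to 75547400, which was at the bottom of the SAT 1 list (1.53) and near the middle of the VAT 1 list (47.3). SAT 2 and VAT 2 shared a region at 75552328 to 75552463, with percentiles of 27.4 and 43.7. Of all merged regions, 9.37% had peaks only in SAT 1 and VAT 1, and 0.652% only in SAT 2 and VAT 2.

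The remaining 11 regions of the Pdgfra window (61.1%) were found in 1 library, against 36.4% of all merged regions. SAT 1 had 2 of them, SAT 2 had 1, VAT 1 had 3 and VAT 2 had 5. Over all merged regions the shares found in these libraries alone were 7.84%, 0.36%, 8.58% and 19.6%. The 11 regions were 98 to 174 bp wide, and their percentiles ran from 1.26 to 37.2, with a median of 17.3. The 5 regions found in 3 libraries (27.8%, against 20.6% of all merged regions) were wider, at 219 to 469 bp, with best percentiles of 24.1 to 81.0. A merged region spans all its peaks, and its best percentile is the highest among its libraries. Width and best percentile therefore tend to rise with the number of libraries by construction.

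With the edges used here, the Pdgfrb window was more densely filled. Of its 19 regions, 3 (15.8%) had a peak in all 4 libraries, against 23.2% of all merged regions. SAT 1 had 12 peaks there, SAT 2 had 4, VAT 1 had 10 and VAT 2 had 15. Their median percentiles were 38.6 in SAT 1, 15.6 in SAT 2, 59.6 in VAT 1 and 36.2 in VAT 2. Among the 3 long lists the median was above the middle in VAT 1 and below it in SAT 1 and VAT 2, which lay close together. Of genome tiles with at least 3 peaks, 25.7% had a lower median in SAT 1, 4.03% in SAT 2, 69.3% in VAT 1 and 21.7% in VAT 2. The 19 regions exceeded the count in 94.7% of 14648 genome tiles of the same length, where the median tile held 3.

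**Figure D2:**
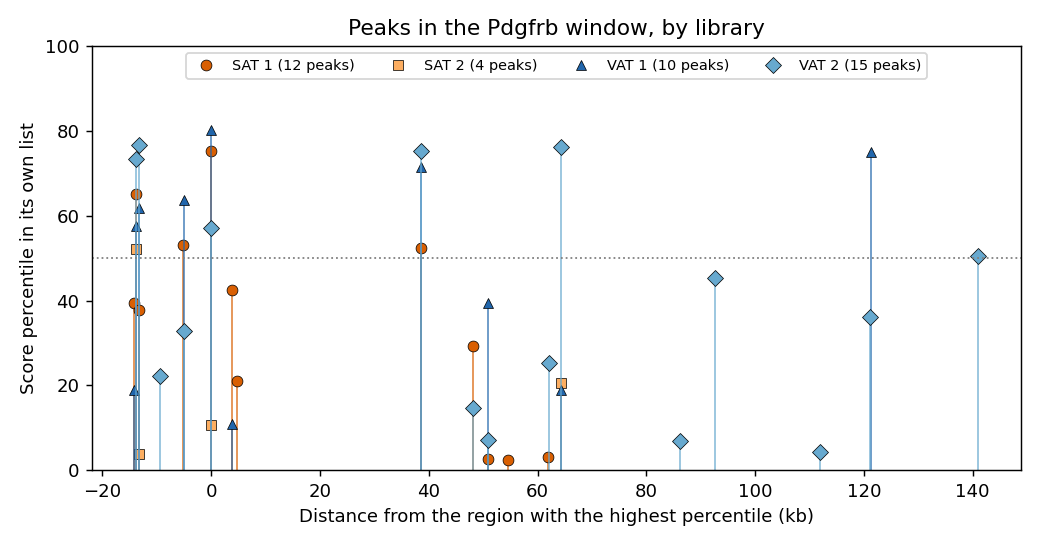
Each marker is 1 peak of the Pdgfrb window, placed by its distance in kb from the region with the highest percentile (x axis) and by its score percentile in its own list (y axis), with a line down to 0 and a dotted line at the percentile of 50. Subcutaneous libraries are orange and visceral ones blue; from 86.1 kb to the right all markers are blue, while orange and blue markers mix at the left.

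All 3 regions with a peak in every library lay in the first of its groups, 8 regions within 19.0 kb, where groups are parted by more than 20 kb without a peak. The first, on chromosome 18 at 61152174 to 61152524, stood at percentiles of 65.1 in SAT 1, 52.2 in SAT 2, 57.5 in VAT 1 and 73.4 in VAT 2. It was the most even of them, and the only region of either window in which all 4 libraries passed the percentile of 50. The second, 142 bp further on at 61152667 to 61153028, stood at 37.7, 3.77, 61.8 and 76.7 in the same order. The third, at 61166002 to 61166336, stood at 75.2, 10.7, 80.1 and 57.0. In the second the subcutaneous percentiles both lay below the visceral ones, and in the third SAT 1 lay between VAT 2 and VAT 1.

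The same group held 1 region missing from SAT 2 alone, at 61160875 to 61161342, with percentiles of 53.0 in SAT 1, of 63.7 in VAT 1 and of 32.7 in VAT 2. It also held both regions of this window found only in SAT 1 and VAT 1, at 61151974 to 61152092 (39.4 and 18.8) and at 61169913 to 61170087 (42.5 and 11.0). These made up 10.5% of the 19 regions of the window, near the 9.37% of all merged regions. SAT 1 ranked both higher than VAT 1 did. No region of this window had peaks only in SAT 2 and VAT 2. In neither window did a region lack VAT 1 alone or VAT 2 alone, or occur only in SAT 2 and VAT 1, patterns that hold 0.457%, 0.245% and 0.096% of all merged regions.

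After 33.5 kb without a peak came a second group of 6 regions within 26.2 kb, from 61204499 to 61230707. It opened with the widest region of either window, 582 bp at 61204499 to 61205080. This region had scores of 103 in SAT 1, of 177 in VAT 1 and of 185 in VAT 2, at percentiles of 52.4, 71.4 and 75.3, and no peak in SAT 2. Among regions that lacked 1 library it had the highest weakest percentile in this window. The group ended with a region missing from SAT 1 alone, at 61230336 to 61230707, which stood at 76.2 in VAT 2 but at 18.8 in VAT 1 and 20.5 in SAT 2. Each window thus held 1 region of this rare kind, and in both VAT 2 ranked it far above VAT 1.

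Between these regions lay weak ones. One at 61216909 to 61217152 had percentiles of 2.59 in SAT 1, of 39.3 in VAT 1 and of 7.15 in VAT 2. SAT 1 and VAT 2 alone shared 2 regions, at 29.2 and 14.7 in the first and at 3.11 and 25.3 in the second. These made up 10.5% of the 19 regions of the window, against 4.93% of all merged regions.

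The last group of the Pdgfrb window, 5 regions between 61252227 and 61307419, had no subcutaneous peak. VAT 2 had a peak in all 5, and VAT 1 in 1. That region, at 61287223 to 61287516, was the one region of either window with peaks in both visceral libraries and in neither subcutaneous one. It stood at a score of 195 in VAT 1, a percentile of 75.1, and at 75 in VAT 2, a percentile of 36.2. Of all merged regions 4.60% had this pattern. The 4 regions found only in VAT 2 stood at 6.82, 45.3, 4.37 and 50.5. Regions found only in VAT 2 make up 19.6% of all merged regions, and 5 of the 19 in this window (26.3%). With 2 regions found only in SAT 1, the regions of this window in 1 library numbered 7 (36.8%), at the level of the 36.4% of all merged regions, and the 2 in SAT 1 made up 10.5%, against 7.84% of all. Their percentiles ran from 2.38 to 50.5.

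Subcutaneous against visceral progenitors is the comparison the series was designed for, and in neither window can 2 libraries against 2 reach a p below the usual threshold. The Pdgfra window had 5.5 ± 3.54 peaks in subcutaneous and 11.0 ± 1.41 in visceral libraries (SD, n = 2 each), with no overlap between the groups. The two-sided exact permutation test gave p = 0.333, the smallest that 2 libraries against 2 allow. SAT 2 has the shortest list, and without it the difference was 3 peaks in place of 5.5. Per 10000 peaks of the list, the window held 1.41 in SAT 1, 1.31 in SAT 2, 1.76 in VAT 1 and 1.93 in VAT 2. The groups still did not overlap (exact permutation p = 0.333), but the 95% Clopper-Pearson interval of each library, which covers counting error only, contained the values of all the others. When every list was limited to its 22845 highest peaks, the numbers were 0, 3, 1 and 2 in the same order, and the difference was 0.

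Median score percentile in the Pdgfra window was 17.4 ± 3.92 in subcutaneous and 28.2 ± 2.24 in visceral libraries (SD, n = 2 each), again without overlap and with an exact permutation p of 0.333. SAT 2 enters this comparison with a percentile from a much shorter list, so the difference is one of rank and not of strength. Without SAT 2 it was 8.04 in place of 10.8. No region there had peaks in both subcutaneous libraries only, nor in both visceral libraries only, against 0.11% and 4.60% of all merged regions. These values hold for the full lists. With lists of equal length the median could not be compared, since SAT 1 kept no peak, and 1 region, the strongest, had peaks only in both visceral lists.

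In the Pdgfrb window the groups overlapped. It had 8.0 ± 5.66 peaks in subcutaneous and 12.5 ± 3.54 in visceral libraries (SD, n = 2 each, exact permutation p = 0.667), and SAT 1 with 12 exceeded VAT 1 with 10. With lists of equal length the numbers were 2 in SAT 1, 4 in SAT 2, 5 in VAT 1 and 4 in VAT 2, and the difference was 1.5. In the window shortened by 50 kb at each end it was 2. In the top 50% of each list the groups did not overlap, with 4 and 1 subcutaneous against 6 and 6 visceral peaks (exact permutation p = 0.333). Without SAT 2 the difference fell from 4.5 to 0.5 peaks, and without VAT 2 to 2. It was 8.5 without SAT 1 and 7 without VAT 1. Per 10000 peaks of the list the values were 2.11 in SAT 1, 1.75 in SAT 2, 1.76 in VAT 1 and 2.41 in VAT 2. Median percentile was 27.1 ± 16.2 in subcutaneous and 47.9 ± 16.5 in visceral libraries, with an exact permutation p of 0.667 and VAT 2 below SAT 1. The groups separated (exact permutation p = 0.333) in 4 alternatives. In the shorter window the medians were 3.11 in SAT 1 and 20.5 in SAT 2 against 39.3 in VAT 1 and 25.3 in VAT 2, and in the window longer by 50 kb at each end 38.6 and 32.1 against 59.6 and 50.5. In the top 50% the difference was 15.4, and with lists of equal length 30.7, where the long lists keep only their highest percentiles by construction. With 1 library left out this difference of 20.8 ranged from 9.14 (without VAT 1) to 32.5 (without VAT 2), and it was 9.37 without SAT 2. Regions found only in both visceral libraries numbered 1 of 19 (5.26%), near the 4.60% of all merged regions, and those found only in both subcutaneous libraries 0, against 0.11%.

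**Figure D3:**
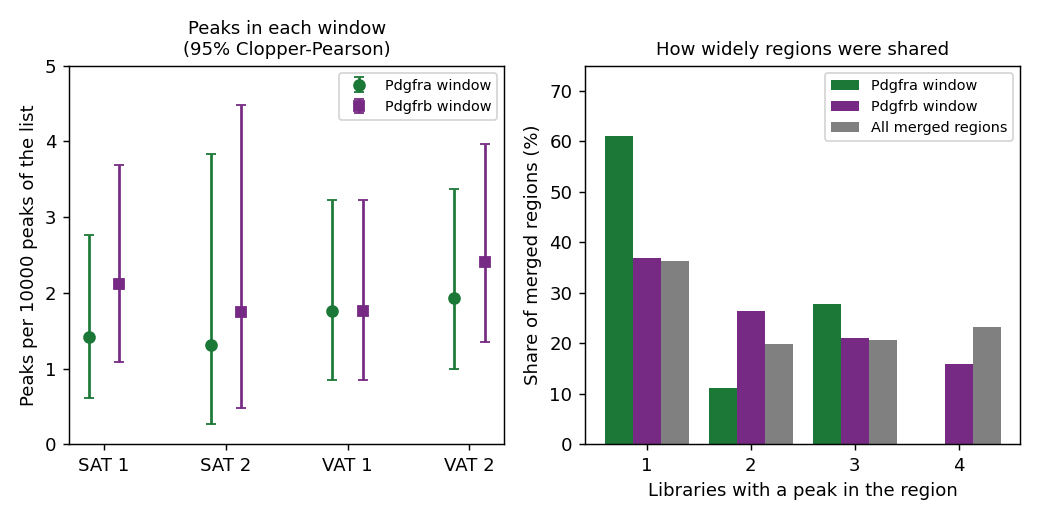
Left, peaks in each window per 10000 peaks of the library's list, with 95% Clopper-Pearson intervals for counting error; right, the share of merged regions (%) with a peak in 1, 2, 3 or 4 libraries, for both windows and for all 83319 merged regions. The intervals of the windows overlap in every library, and the Pdgfra window has no bar at 4 libraries, where the Pdgfrb window has 15.8% and all regions 23.2%.

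Set side by side, the Pdgfrb window had 10.6 merged regions per 100 kb and the Pdgfra window 6.67. Its regions were wider, with a median of 268 bp against 134 bp, where all merged regions had 228 bp. Peaks covered more of it in every library: 1.50% against 0.461% in SAT 1, 0.364% against 0.127% in SAT 2, 1.50% against 0.529% in VAT 1 and 2.06% against 0.747% in VAT 2. Density, width and coverage are given for these window edges only. With both windows shorter by 50 kb at each end, the Pdgfrb window had fewer peaks than the Pdgfra window in every library. The numbers were 5, 1, 3 and 7 against 8, 3, 10 and 9 in the same order of libraries. The Pdgfrb window is the shorter of the pair in both settings. In the full windows the median percentile was also higher around Pdgfrb in each library, by the smallest margin in SAT 2, at 15.6 against 14.6. This order depended on the window edges and on the part of the list used. With both windows shorter by 50 kb at each end it turned round in SAT 1, at 3.11 around Pdgfrb against 20.2 around Pdgfra, and in VAT 2, at 25.3 against 35.2. In the top 50% it turned round in VAT 1, at 67.6 against 81.0, and with lists of equal length likewise, at 71.4 against 81.0. In both cases 81.0 is the value of the 1 Pdgfra peak that was kept, set against 6 and 5 peaks around Pdgfrb. The windows are 2 places in the same 4 libraries, so no test was made of this contrast.

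Few peaks of either window ranked near the top of their lists. At or above the percentile of 80 stood 1 peak around Pdgfra and 1 around Pdgfrb, both in VAT 1. At or above 50 stood 1 of 8 peaks in SAT 1, 0 of 3 in SAT 2, 1 of 10 in VAT 1 and 2 of 12 in VAT 2 around Pdgfra. Around Pdgfrb it was 4 of 12, 1 of 4, 6 of 10 and 6 of 15 in the same order. By definition about 50% of each whole list stands at or above its middle. Only VAT 1 around Pdgfrb, at 60.0%, exceeded that share.

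Regions with a peak in all 4 libraries lay within 50 kb of both windows, 2 before the Pdgfra window and 1 on each side of the Pdgfrb window. The first peak inside the Pdgfra window lay 67.6 kb from its start, while just outside, 9.09 kb before the start, a region at 75440446 to 75440909 had a peak in all 4 libraries, at percentiles of 88.8 in SAT 1, 11.9 in SAT 2, 81.7 in VAT 1 and 84.2 in VAT 2. The other, 7.14 kb before the start, was weak, at 25.7, 0.455, 13.1 and 14.7 in the same order. The region nearest to the start on the outside, 6.64 kb away, stood at 36.5 in SAT 1, 63.1 in VAT 1 and 39.3 in VAT 2. After the window the next region, 59.4 kb away, was found in VAT 2 alone, at 9.82. Before the Pdgfrb window the nearest region, 1.76 kb away, stood at 33.0 in SAT 1, 46.1 in VAT 1 and 61.6 in VAT 2. A region 16.5 kb before that window had a peak in all 4 libraries, at 67.5 in SAT 1, 43.6 in SAT 2, 76.2 in VAT 1 and 84.2 in VAT 2. After the window, 16.1 kb away, an 828 bp region had a peak in all 4 libraries, at percentiles of 94.6, 73.6, 85.9 and 85.1 in the same order. The regions 9.09 kb before Pdgfra's window and 16.1 kb after Pdgfrb's ranked higher in SAT 1 than any member did. Which genes these outer regions belong to was not determined.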

How the data were processed

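ATAC-seq peak lists of 4 libraries, 2 per depot, were used, with groups and replicate numbers from the sample titles. Per the submitters' processing notes, Bowtie2 and MACS2 were used on build mm9; their versions and options, duplicate handling, read shifting and repeat filters are not stated there. The authors deposited 1 list per library, so peaks were called per library. The deposited score is not scaled in any header and was used only as a percentile within its list (average rank for ties).

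Peaks overlapping by at least 1 bp were merged across lists, and the best peak stood for a library. Positions count from 1. Tiles have the length of the window they are compared with. Libraries were compared with two-sided exact permutation tests; regions are not replicates and got no p-value. The members and lists were chosen with earlier results of these data known. Named regions are, per window, up to 5 with peaks in all libraries and those shared only within a depot or a replicate number. Among regions lacking 1 library, the one with the highest weakest percentile was named. Other regions were described after their values were seen. PDGF ligands and macrophage markers need an mm9 annotation and were not analysed here. The merging was tested on simulated data and checked against bedtools 2.31.1. Python 3.11.15, numpy 2.4.6, pandas 2.3.3 and scipy 1.17.1 were used.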

Additional observations from a re-analysis of the deposited data

How the results depend on the processing

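No mean difference between depots changed direction under any alternative that gave a value. That in peak number around Pdgfra became 0 with lists of equal length, where SAT 1 kept no peak. Its median percentile could not be computed with lists of equal length, or in the top 50% of each list, where SAT 2 kept none. With 1 library left out, the difference ranged from 3 to 8 peaks around Pdgfra and from 0.5 to 8.5 around Pdgfrb.

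Counts of regions were small and moved readily. Around Pdgfra, regions in every library numbered 2 when the window was longer by 50 kb at each end, and 0 to 4 with 1 library left out. Visceral-only regions numbered 1 with lists of equal length and 1 to 5 with 1 library left out, and subcutaneous-only regions 0 to 2. Around Pdgfrb, regions in every library numbered 2 when peaks within 500 bp were merged, 0 with lists of equal length and 1 in the top 50%. They numbered 0 with the window shorter by 50 kb at each end, 5 with it longer, and 3 to 6 with 1 library left out. Visceral-only regions numbered 0 in the shorter window and 1 to 6 with 1 library left out, and subcutaneous-only regions 0 to 2. Leaving out a library loosens these rules by construction.

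With the replicate block the differences were 5.5 peaks (exact permutation p = 0.5, the smallest possible) around Pdgfra and 4.5 (p = 1.0) around Pdgfrb, and in median percentile 10.8 (p = 0.5) and 20.8 (p = 0.5). Visceral minus subcutaneous peak number was 2 in replicate 1 and 9 in replicate 2 around Pdgfra, but -2 and 11 around Pdgfrb. The direction in peak number around Pdgfrb thus differed between replicate numbers. In median percentile the differences were 9.62 and 12.0 around Pdgfra, and 21.1 and 20.6 around Pdgfrb. The labels do not say that a number marks a shared batch. Over all 83319 merged regions, the differences in peak presence between replicates 1 and 2 of the 2 depots had a correlation of 0.231.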

Other observations

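SAT 2 and SAT 1 had no region in common around Pdgfra, although 93.8% of all regions with a SAT 2 peak also had a SAT 1 peak. Of the 3 regions with a SAT 2 peak there, 2 had a VAT 2 peak, and 1 of these 2 also had a VAT 1 peak. The third, at 75553228 to 75553328 on chromosome 5, was found in no other list, as were 0.36% of all merged regions. With 3 regions this is a count and not a test. Around Pdgfrb, SAT 1 held 3 of the 4 regions with a SAT 2 peak, and both visceral libraries held all 4.

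Neither visceral library steadily ranked shared sites higher than the other did. Of the regions with a peak in both, VAT 2 ranked 2 of 5 around Pdgfra and 4 of 8 around Pdgfrb higher than VAT 1 did.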
